A study of Rattus norvegicus with 27 samples.

Results

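The genes described here are 10 components of the circadian clock, Per1, Per2, Per3, Cry1, Cry2, Clock, Npas2, Nr1d1, Nr1d2 and Dbp, measured in the medial prefrontal cortex (mPFC) of rats. They were taken by symbol from a count table of 36865 gene rows, of which 28157 carried a symbol, and all 10 were found and passed the filter on low counts that kept 11292 rows for testing. The 27 libraries, 1 per rat, came from male adult Wistar rats and form 1 group with no genetic change, and there was no treated or control group to compare. All rats were kept under 12 h of light and 12 h of dark with lights off at 8 in the morning, were tested for anxiety-like behavior in the elevated plus-maze, light-dark and open field tests, and were killed straight from the home cage in the early active phase. The labels also list acoustic startle and fear conditioning and carry learned helplessness as the treatment of every library, which the study's methods do not describe for these rats. The labels give no hour of collection for any rat, so no level below can be tied to an hour.

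The mammalian clock is a loop of transcription that runs in most cells over about a day. The proteins CLOCK or NPAS2 pair with BMAL1, bind E-box sequences and switch on the Per and Cry genes, whose proteins gather, enter the nucleus and block that pair. The same pair drives Nr1d1 and Nr1d2 (REV-ERB alpha and beta), which repress Bmal1, and Dbp, a transcription factor that carries the rhythm to output genes through D-box sequences. The Per genes and Dbp therefore peak away from Bmal1 and Npas2 in most tissues, and the cerebral cortex keeps such a rhythm. Per1 and Per2 are in addition switched on by glucocorticoids and by neuronal activity.

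Dbp rose and fell from rat to rat with Ciart, a repressor of the CLOCK and BMAL1 pair, and Ciart was the 1 gene of 11291 that passed edgeR's quasi-likelihood test on the level of Dbp, while DESeq2's Wald test called 3. Nr1d1 and then Bmal1, whose slope was negative, were next by p, did not pass the edgeR test and were the other 2 that DESeq2 called. The mean score of the Per genes and Dbp had a relation near 0 with that of Npas2 and Clock over the 27 libraries. The pairs behind it went both ways, with a Spearman's rho from -0.39 for Dbp and Clock to 0.44 for Per2 and Npas2. Nr1d2, Dbp and Ciart were low and Bmal1 was high in libraries with neighbouring numbers, 31, 32, 34 and 35.

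Clock genes are known to regulate each other through short elements near their starts, which were searched for here. RefSeq windows of 250 bases before to 50 bases after a start (build GRCr8, the build of the sequence table and not necessarily of the counts) were found for 9 of the 10 members, Cry1 being the one without, and for Ciart and Bmal1, with 13 windows in all. The E-box CACGTG, searched on both strands, lay in 2 of the 13 windows and in 6.42% of all 33469 windows. Ciart had 3 copies, which begin 93, 35 and 21 bases before a start that lies inside the span of the gene, and Nr1d1 had 1 at 191 bases before an internal start. The E-box-like CACGTT was in 3 of the 13 windows (4.83% of all windows), those of Cry2, Per2 and the outermost Nr1d1 start. The D-box TTATGTAA was in the Per2 window and in 0.893% of all windows, and TTACGTAA was in none of the 13 and in 0.12% of all. The element AGGTCA, bound by REV-ERB proteins, was in the windows of Bmal1 and Nr1d2 and in 16.2% of all windows. The cAMP element TGACGTCA was in none of the 13 (1.83% of all), and its core TGACG, which the longer element contains, was in the windows of Per3, Per2 and Nr1d2 (21.2% of all). The windows of Per1, Clock, Npas2 and Dbp held none of these letters. A match is a description of these letters and not evidence of binding. The stretches that follow show an E-box, D-box or AGGTCA match in each of 5 genes that the results turn on, 5′ to 3′ on the transcribed strand, with the matched letters in capitals.
Ciart, internal start, chr2:186112322-186112351, minus strand: tgtatctagagtCACGTGttgccggcaaag
Ciart, internal start, chr2:186112260-186112289, minus strand: gggggaggCACGTGcagagccgCACGTGtc
Nr1d1, internal start, chr10:84229628-84229657, minus strand: tgtcagctcccaCACGTGtctggggatcct
Nr1d1, outermost start, chr10:84231933-84232032, minus strand: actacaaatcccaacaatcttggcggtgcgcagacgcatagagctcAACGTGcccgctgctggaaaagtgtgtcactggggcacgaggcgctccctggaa
Per2, chr9:99497038-99497067, minus strand: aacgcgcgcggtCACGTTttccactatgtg
Per2, chr9:99497114-99497213, minus strand: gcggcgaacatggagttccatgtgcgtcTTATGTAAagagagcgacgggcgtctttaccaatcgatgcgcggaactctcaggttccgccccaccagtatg
Nr1d2, chr15:9954814-9954913, plus strand: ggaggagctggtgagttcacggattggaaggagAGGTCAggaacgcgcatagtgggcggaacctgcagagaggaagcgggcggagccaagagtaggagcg
Bmal1, chr1:176766300-176766327, plus strand: gaaggcagaaagtAGGTCAgggacggag
In the outermost Nr1d1 stretch the capitals AACGTG are CACGTT read on the other strand. The starts used for Per2 and Bmal1 also lie inside the spans of their genes.

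Totals ran from 4907255 to 12771309 counts per library. Libraries numbered up to 31 (n = 16) held 4907255 to 8568317 counts and those from 32 (n = 11) held 9404220 to 12771309, so depth and library number cannot be told apart. The labels give no grouping that matches the 2 sets. The study's rats came from more than 1 cohort, the labels do not give the cohort of a library, and cohort and set cannot be told apart here. Neuronal, interneuron, astrocyte, oligodendrocyte, precursor, microglial and endothelial markers were all counted, and the 3 choroid plexus markers summed to 1.21 to 18.9 normalized counts. The 4 meningeal markers summed to 108 to 1727 normalized counts. Their slopes were all positive on Per1 (median 0.30) and Dbp (median 0.13) and all negative on Npas2 (median -0.39) and Clock (median -0.21). None passed the edgeR test on these 4 genes (lowest adjusted p = 0.21, 0.86, 0.29 and 0.18 in that order). On Per2, 2 slopes were positive and 2 negative and none passed (lowest edgeR adjusted p = 0.51). The part of the meningeal markers in the results was not tested. In whole tissue, fewer cells of a type and less RNA per cell cannot be told apart. Levels below are normalized counts, that is counts divided by the library's size factor, and they are not divided by transcript length, so they are compared between libraries and not between genes.

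Among the repressors, Per1 had a mean of 718 ± 113 normalized counts (SD, n = 27), with a lowest library at 557, a median of 710 and a highest at 951. Library 3 was the lowest and library 51 the highest. Per2 had a mean of 1065 ± 119 (SD, n = 27) and ran from 881 in library 9 through a median of 1072 to 1386 in library 51. Per3 had the widest range of the members, from 128 in library 3 through a median of 245 to 413 in library 51, a 3.22-fold span, with a mean of 264 ± 57.3 (SD, n = 27). All 3 Per genes, whose products form the repressor complex with the cryptochromes, thus had their highest value in the same rat. Cry2 was highest in library 51 as well, and Nr1d1 and Npas2 had their second highest value there.

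Cry1, the least counted member, had a mean of 203 ± 28.2 normalized counts (SD, n = 27) and ran from 164 in library 34 through 197 to 269 in library 3. Cry2 had a mean of 1585 ± 92.9 (SD, n = 27), with values of 1438, 1602 and 1804 as lowest, median and highest. The cryptochromes carry much of the repression in the loop, and the spread of Cry2 was small, with a 1.25-fold span against 1.64-fold for Cry1.

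Of the activators, Clock had a mean of 809 ± 108 normalized counts (SD, n = 27), from 600 in library 26 through 818 to 1048 in library 12. Npas2, a paralog of Clock prominent in the forebrain, had a mean of 1374 ± 81.3 (SD, n = 27), from 1195 in library 9 through 1386 to 1514 in library 35, a 1.27-fold span. Their partner Bmal1, no member of the 10, had a mean of 468 ± 42.7 (SD, n = 27), from 379 in library 43 through 468 to 567 in library 31.

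In the second loop, Nr1d1 had a mean of 996 ± 171 normalized counts (SD, n = 27) and ran from 748 in library 5 through 947 to 1380 in library 47. Nr1d2 had a mean of 1293 ± 153 (SD, n = 27), from 988 in library 35 through 1332 to 1549 in library 18. The output gene Dbp had a mean of 1905 ± 242 (SD, n = 27), from 1428 in library 35 through 1927 to 2303 in library 47. Ciart was low, at 112 ± 24.5 (SD, n = 27), from 62.4 in library 32 through 117 to 153 in library 43, which are 54 to 229 reads per library.

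The SD of log2(normalized count + 1) over the 27 libraries was 0.32 for Per3, 0.24 for Nr1d1, 0.22 for Per1, 0.19 for Clock, Cry1 and Dbp, 0.18 for Nr1d2, 0.16 for Per2, 0.09 for Npas2 and 0.08 for Cry2. The median of the 10 members was 0.19, and that of the 11730 genes with a mean of at least 10 counts was 0.19 as well, with 5 of the 10 members above it. The median SD of the list was therefore near that of these genes, which were not matched to the members for level. How the members varied beside genes of like level was not tested. Cry2 and Npas2 were among the steadiest, since only 3.15% and 3.58% of genes had a smaller SD. All 10 members varied more than counting error allows (chi-square dispersion test, adjusted p under 0.05), as did 89.8% of all genes, and counting made up 3.33% of the variance of Dbp, 3.40% of that of Nr1d1 and 26.6% of that of Cry1.

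**Figure D1:**
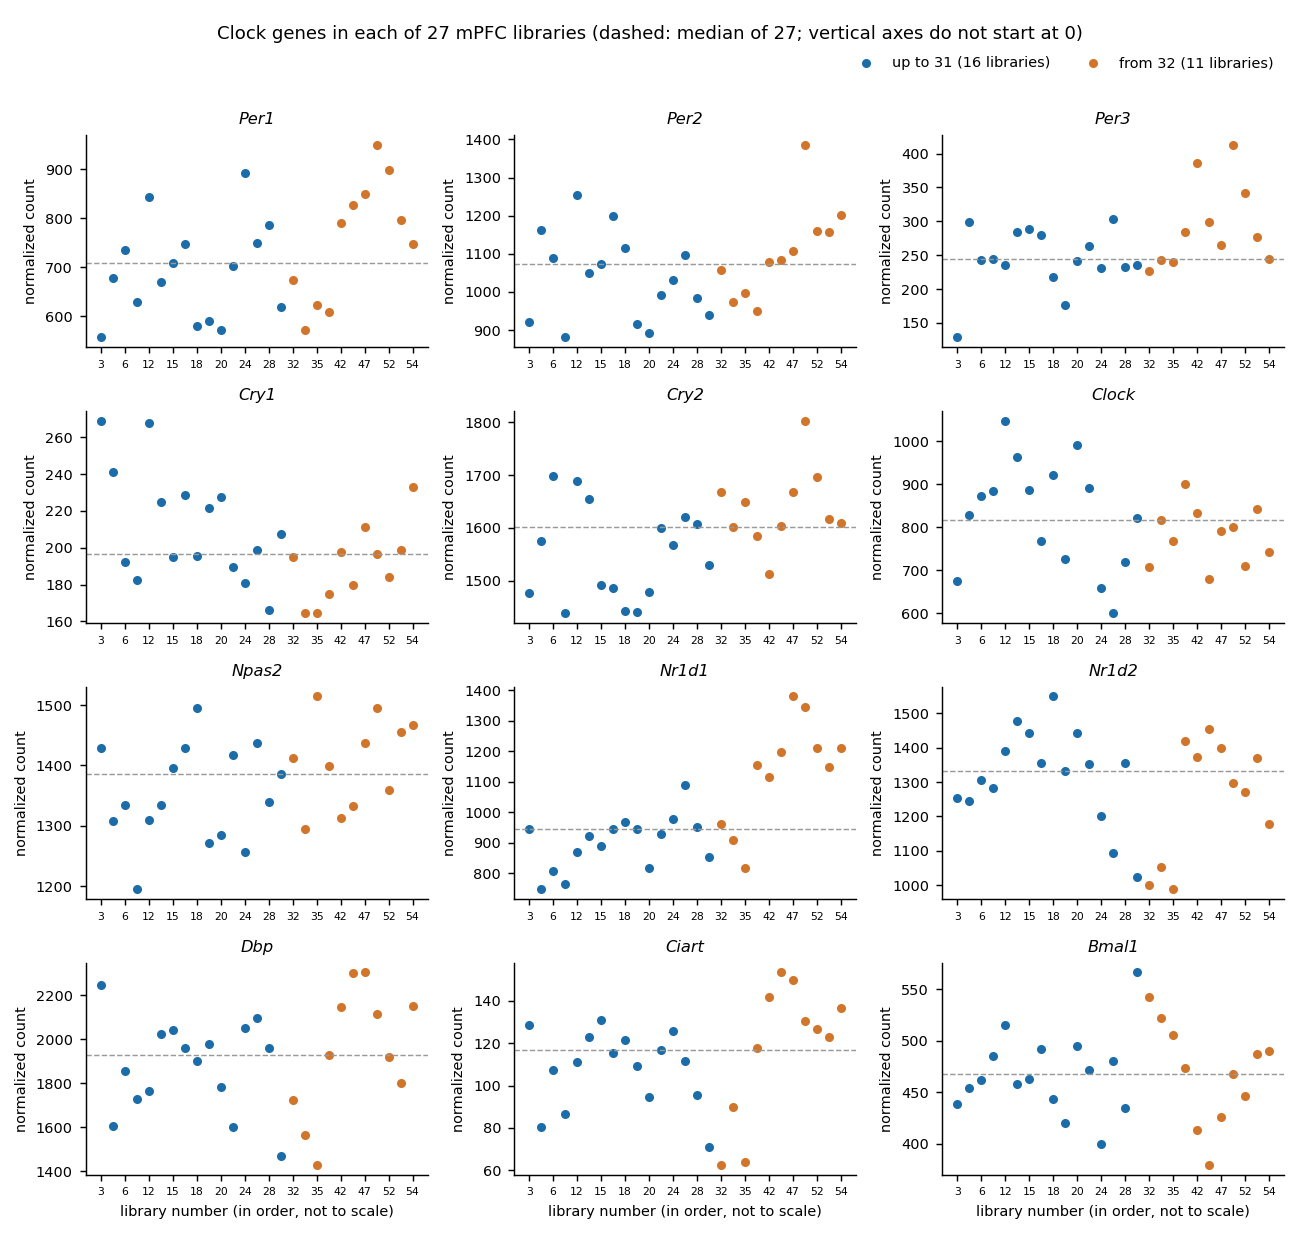
Each panel plots 1 gene, with the 27 libraries in order of their number on the horizontal axis and the normalized count on the vertical axis, which does not start at 0. Blue points are libraries up to 31 (n = 16), orange points those from 32 (n = 11) and the dashed line is the median of the 27. Nr1d2, Dbp and Ciart dip and Bmal1 peaks at libraries 31 to 35, and Nr1d1 is at or above 1116 from library 39 on.

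Nr1d1 was the 1 member that differed between the library sets. Its values up to 31 ran from 748 through a median of 926 to 1089 normalized counts, and those from 32 ran from 818 through 1156 to 1380. The groups overlapped: 8 of the 11 later libraries lay above the highest of the 16 earlier ones, and the remaining 3 were libraries 32, 34 and 35, at 961, 909 and 818. The means were 902 ± 88.0 (SD, n = 16) and 1132 ± 174 (SD, n = 11), a log2 difference of 0.33 ± 0.07 (SE, edgeR's quasi-likelihood test, adjusted p = 0.0011). Over all genes 9.01% were called higher and 9.24% lower in the later set, so 1 of 10 members is a share near the background. Per3 had a larger SE and did not pass, with means of 244 ± 45.4 (SD, n = 16) and 293 ± 62.2 (SD, n = 11) and a log2 difference of 0.26 ± 0.11 (edgeR adjusted p = 0.082).

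With the library number as a continuous covariate, 3 of the 10 members rose, beside 11% of all genes that rose and 10.4% that fell. Nr1d1 rose by 0.20 ± 0.03 on the log2 scale per SD of library number (edgeR adjusted p = 1.9e-05), Per1 by 0.11 ± 0.04 (edgeR adjusted p = 0.038) and Per3 by 0.15 ± 0.05 (edgeR adjusted p = 0.031). With the library set as a further term no member and 1 gene of 11292 was called (edgeR's quasi-likelihood test, 1176 genes at an unadjusted p under 0.05), and the slope of Nr1d1 was then 0.22 ± 0.06 (edgeR adjusted p = 0.15). DESeq2 was run without the set term only and called 3 members. The astrocyte markers Gja1, at -0.09 ± 0.02 (edgeR adjusted p = 0.0073), and Aqp4, at -0.12 ± 0.04 (edgeR adjusted p = 0.029), 2 of the 4 in their list, fell with library number. The neuronal marker Rbfox3, the interneuron marker Slc32a1 and the striatal marker Rgs9 rose and the microglial marker Aif1 fell (edgeR adjusted p = 0.0026, 5.9e-04, 0.033 and 0.016). Of the 9 genes for kinases, ubiquitin ligase parts and Timeless, Csnk1a1 and Csnk1d fell too (edgeR adjusted p = 9.4e-06 and 0.043). Nfkbia and Tsc22d3, 2 of 9 glucocorticoid-responsive genes tested, fell (edgeR adjusted p = 0.0044 and 0.0052), as did Hspa5, 1 of 7 temperature-responsive genes (edgeR adjusted p = 0.0068). Egr4, 1 of 12 immediate early genes, and Usp2, 1 of 9 partners and output genes, rose (edgeR adjusted p = 0.0018 and 0.042). The part of cell makeup in the slope of Nr1d1 was not tested. The summed level of the 4 astrocyte markers, 10187 to 18289 normalized counts, had a Spearman's rho of -0.58 with Nr1d1 over the 27 libraries. That of the 9 genes for kinases, ubiquitin ligase parts and Timeless had -0.61.

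Libraries 31, 32, 34 and 35 stood apart in Nr1d2, Dbp, Ciart and Bmal1, but not in Nr1d1, where they ranked 6, 16, 9 and 5 from the lowest. They held the 4 lowest values of Nr1d2, at 1023, 1000, 1053 and 988 normalized counts in that order, and the next was library 26 at 1093. For Dbp they held the 3 lowest values, 1428 in library 35, 1470 in library 31 and 1567 in library 34, with library 32 at rank 6 with 1725. For Ciart library 32 was lowest at 62.4, then 35 at 63.8 and 31 at 70.8, with library 34 at rank 6 with 89.9. Bmal1 went the other way: its 3 highest values were 567, 542 and 522 in libraries 31, 32 and 34, and library 35 was the fifth highest at 506. Library 31 belongs to the shallow set and the other 3 to the deep set. The 4 libraries were singled out after their values were seen, so no test is given.

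Bmal1 then fell at each of the next libraries, to 474 in 39, 413 in 42 and 379 in 43, its lowest value. In the same libraries Ciart was at 118, 142 and 153, and Dbp at 1927, 2146 and 2301. Ciart and Dbp were thus at or next to their highest where Bmal1 was lowest. As a description chosen after seeing this, the rank correlation of each gene with its own value in the next library by number was computed over the 26 neighbouring pairs, with the mean of each library set removed. It was 0.58 for Nr1d1 and 0.58 for Ciart, and 0.11% and 0.10% of the 11730 genes had a higher value. Per1 had 0.47, Nr1d2 0.42 and Dbp 0.37, with 1.03%, 1.87% and 3.79% of genes higher. The other 6 members ran from -0.15 for Npas2 to 0.23 for Cry2, beside a median of 0.04 over all genes. Bmal1 had 0.28, with 9.67% of genes higher. Without removal of the set means the values were 0.67 for Nr1d1 and 0.64 for Ciart, beside a median of 0.13, and more genes lay higher: 0.989% for Nr1d1, 1.62% for Ciart, 6.98% for Per1, 11.3% for Nr1d2 and 12.4% for Dbp. What the numbers stand for, such as an order of collection or of handling, is not given in the labels.

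The relation between the Per genes with Dbp and the Npas2 and Clock side was then measured. Each side was scored as the mean z score of its genes, and the Spearman's rho of the scores was 0.06 over the 27 libraries, with a Pearson's r of 0.05. It was 0.09 in the libraries up to 31 and -0.07 in those from 32. Leaving out library 51 and library 3, the farthest from the median of the Per and Dbp score, gave -0.09, and TMM in place of size factors gave -0.02. The mean scores thus showed no clear inverse relation. Npas2 and Clock did not rise together, however, with a rho of -0.13 over the 27 libraries. Opposite relations of Npas2 and of Clock with the Per genes and Dbp can cancel in their mean score. The scores therefore cannot decide whether Npas2 or Clock alone was inversely related to the other side.

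The 8 pairs behind the scores went both ways, and 2 of them reached an unadjusted p under 0.05. Per2 rose with Npas2 with a rho of 0.44 (permutation test, two-sided, p = 0.0225) and an r of 0.44 (permutation p = 0.0218). The rho was 0.42 and 0.41 within the sets, but r fell to 0.22 without libraries 51 and 9. Dbp was lower where Clock was higher, with a rho of -0.39 (permutation p = 0.0445) and an r of -0.35 (permutation p = 0.0779). That rho was -0.51 up to 31 and -0.14 from 32, and r was -0.45 without libraries 35 and 31. Over all genes tested neither relation passed: Per2 changed by 0.07 ± 0.03 per SD of Npas2 (edgeR adjusted p = 0.32) and Dbp by -0.07 ± 0.03 per SD of Clock (edgeR adjusted p = 0.12). The remaining 6 pairs had rho values from -0.27, for Per1 and Clock, to 0.15, for Dbp and Npas2. No inverse relation of Dbp and Npas2, whose rhythms oppose each other in most tissues, was detected.

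**Figure D2:**
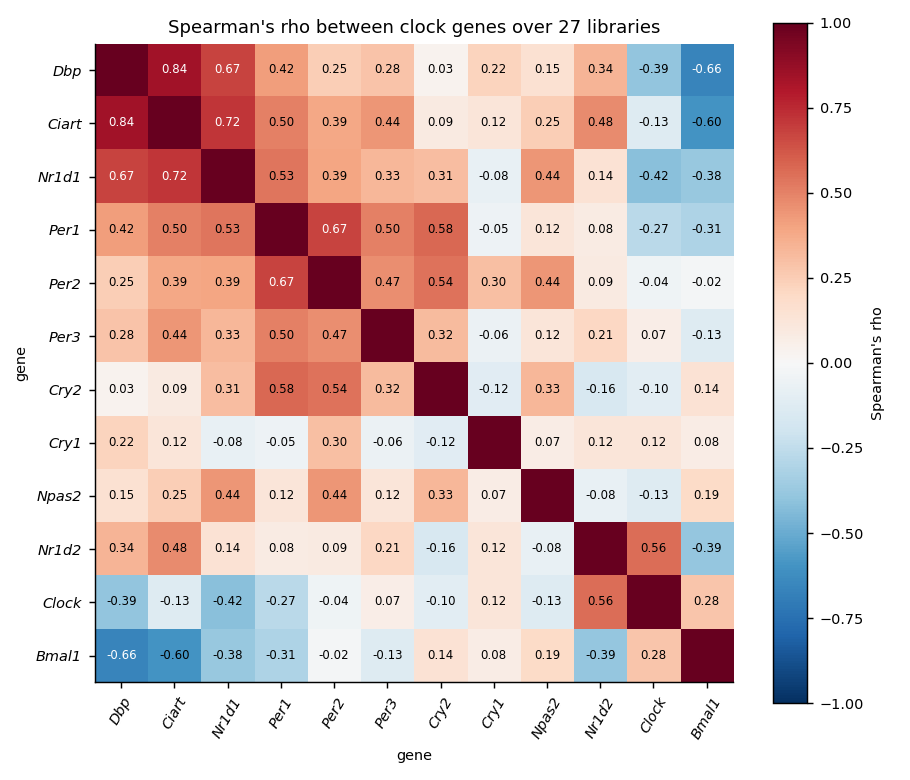
Spearman's rho between each pair of the 10 members, Ciart and Bmal1 over the 27 libraries, from -1 in blue to 1 in red, with the value in each cell. Dbp, Ciart and Nr1d1 form a red block at 0.67 to 0.84, the 3 Per genes and Cry2 another at 0.32 to 0.67, and the row of Bmal1 is blue for Dbp (-0.66) and Ciart (-0.60).

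Over all 45 pairs of members 33 had a positive and 12 a negative rho, with a median of 0.15 and a range from -0.42, for Clock and Nr1d1 (-0.53 and -0.13 in the sets up to 31 and from 32), to 0.67, for Dbp and Nr1d1. All values in a library share its size factor and tissue, and no p is given for these pairs. Per1 and Per2 had 0.67, with 0.53 and 0.83 in the sets. Dbp and Ciart had 0.84 (0.70 and 0.93 in the sets), Dbp and Nr1d1 0.67 (0.68 and 0.80), Nr1d1 and Ciart 0.72 (0.56 and 0.70), and Dbp and Bmal1 -0.66 (-0.55 and -0.76). The relations among Dbp, Ciart and Nr1d1 thus kept their sign in each set. Nr1d2, the close relative of Nr1d1, had 0.56 with Clock and 0.14 with Nr1d1, but the order turned between the sets: it had 0.72 with Clock and -0.0059 with Nr1d1 up to 31, and 0.25 and 0.51 from 32. Nr1d2 and Ciart had 0.48 (0.32 and 0.72), and 0.16 without libraries 31, 32, 34 and 35. Ciart and Bmal1 had -0.60 (-0.39 and -0.87), and -0.38 without those 4 libraries. Dbp and Ciart had 0.77 without them.

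To place these relations among all genes, each gene's counts were fitted on the level of 1 clock gene at a time, with slopes given as the log2 change per SD of that level. On Dbp, 0 of the 9 other members were called, beside 0.00886% of all genes that rose and 0% that fell by edgeR's quasi-likelihood test, with 628 genes at an unadjusted p under 0.05, while DESeq2 called 3 genes. The gene that rose was Ciart, by 0.28 ± 0.04 on the log2 scale per SD of Dbp (edgeR adjusted p = 7.2e-04). Nr1d1 followed at 0.16 ± 0.03 (edgeR adjusted p = 0.31) and Bmal1 at -0.09 ± 0.02 (edgeR adjusted p = 0.42). DESeq2's Wald test called both of them, with an adjusted p of 0.028 for Nr1d1 and 0.043 for Bmal1. With the library set as a term edgeR called Ciart and Nr1d1, the latter at 0.14 ± 0.02 (edgeR adjusted p = 0.0080).

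Without libraries 31, 32, 34 and 35 the slope of Ciart was 0.22 ± 0.04 (edgeR adjusted p = 0.046), and 17 genes were called. The slope of Nr1d2 on Dbp was 0.09 ± 0.03 over all libraries (edgeR adjusted p = 0.85) and -0.0071 ± 0.03 without those 4, so it rests on them. Within the sets alone Ciart had slopes of 0.21 ± 0.06 and 0.33 ± 0.06 and did not pass (edgeR adjusted p = 0.46 and 0.20). Slopes on Dbp were not found to differ between the sets for any gene (0% called, edgeR interaction term, 1062 genes at an unadjusted p under 0.05, no DESeq2 fit).

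**Figure D3:**
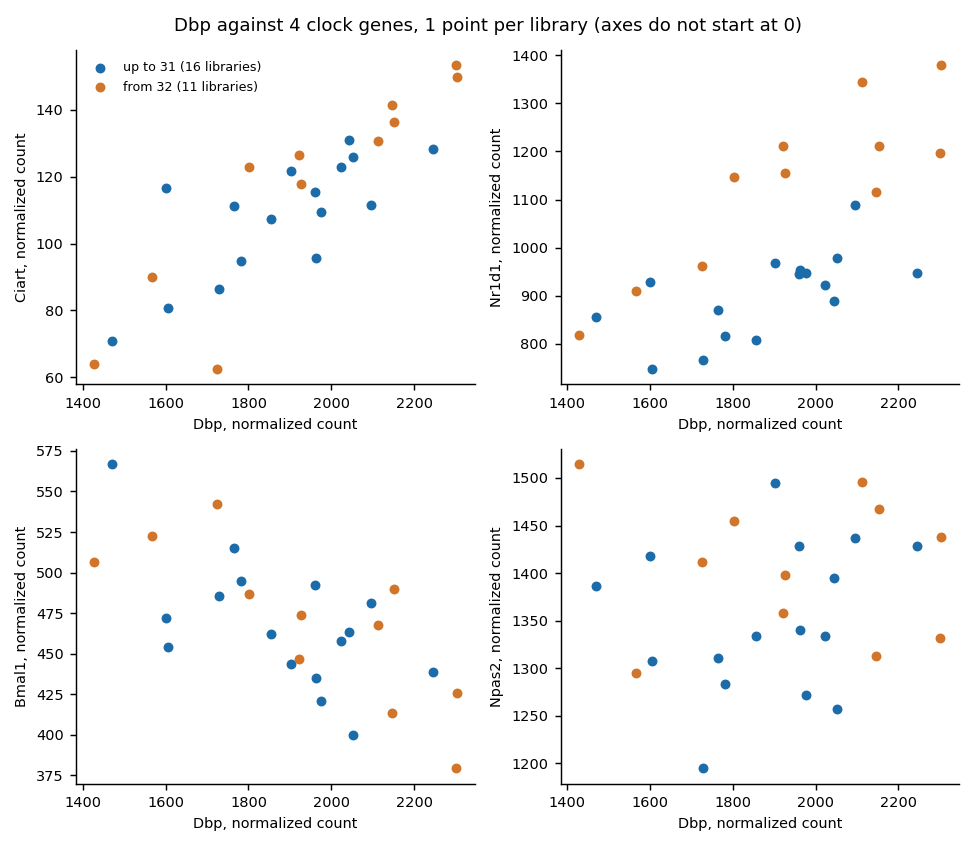
Each point is 1 library, with the normalized count of Dbp on the horizontal axis and that of Ciart, Nr1d1, Bmal1 or Npas2 on the vertical axis, and no axis starts at 0. Blue points are libraries up to 31 (n = 16) and orange points those from 32 (n = 11). Ciart (rho 0.84) and Nr1d1 (0.67) rise with Dbp, Bmal1 falls (-0.66) and Npas2 shows no clear direction (0.15).

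Of the 9 other members, 8 had a positive slope on Dbp and 1, Clock, a negative one, with a median of 0.05 beside 0.00 over all genes. Of the 12 partners and output genes listed with the clock, 9 were tested, and 1, Ciart, rose with Dbp, with 4 slopes positive and 5 negative and a median of 0.00. Rora, Hlf and Bhlhe41, the other 3, had 0 counts in all 27 libraries. Rora and Hlf are known to be expressed in cortex, so their expression cannot be read from these zeros, whose cause was not tested. Tef, a relative of Dbp in the PAR bZip family, had 3703 ± 252 normalized counts (SD, n = 27), and Nfil3, the repressor that competes for D-boxes, 130 ± 20.6 (SD, n = 27). The 9 genes of another list are Timeless and the kinases and ubiquitin ligase parts that set the life of the PER and CRY proteins. None of the 9 was called on Dbp, and 8 of 9 slopes were negative with a median of -0.04.

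Of the 9777 genes that averaged 50 normalized counts or more, those most like Dbp by Spearman's rho over the 27 libraries were Ciart (0.84), Kansl2 (0.65), Dzip1l (0.63), Tfe3 (0.63) and Chfr (0.63). The most opposed were Thumpd3 (-0.71), Hsp90b1 (-0.67), Leo1 (-0.66), Bmal1 (-0.66) and Alg14 (-0.63). Ciart thus stood apart at the top, and Bmal1 was the fourth most opposed gene. For Npas2 the most alike were Rasgef1c (0.71), Mad2l2 (0.67), Extl1 (0.67), Echdc2 (0.66) and Mutyh (0.65), and the most opposed Slc35a3 (-0.71), Cdadc1 (-0.63), Sdc2 (-0.63), Prdx4 (-0.62) and Phf14 (-0.59). None of the genes closest to Npas2 is in the lists of clock genes used here.

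On Per1, the Per gene that reacts fastest to hormones and activity, 4 of the 9 other members rose and 0 fell, beside 4.03% of all genes that rose and 5.16% that fell. Per2 rose by 0.12 ± 0.02 on the log2 scale per SD of Per1 (edgeR adjusted p = 0.0090), Per3 by 0.19 ± 0.05 (edgeR adjusted p = 0.019), Nr1d1 by 0.14 ± 0.04 (edgeR adjusted p = 0.021) and Cry2 by 0.05 ± 0.02 (edgeR adjusted p = 0.032). Dbp had 0.08 ± 0.03 and Ciart 0.16 ± 0.06, and neither passed (edgeR adjusted p = 0.12 and 0.065). Per1 was thus related to genes of both blocks of the rho matrix, with a rho of 0.58 with Cry2 and 0.53 with Nr1d1, 0.50 with Ciart and 0.42 with Dbp. With Nr1d1, Ciart and Dbp it was 0.23, 0.11 and 0.13 up to 31 and 0.75, 0.63 and 0.55 from 32, and with Cry2 0.65 in both. The slope of Nr1d1 on Per1 was 0.03 ± 0.04 up to 31 (edgeR adjusted p = 0.64) and 0.17 ± 0.04 from 32 (edgeR adjusted p = 0.31). Without library 3, the lowest in Per1 and Per3, 150 genes were called in place of 1038, while the members' slopes stayed close to those above. Per2 (0.11, edgeR adjusted p = 0.032) and Nr1d1 (0.15, edgeR adjusted p = 0.047) then passed, and Per3 (0.15, edgeR adjusted p = 0.066) and Cry2 (0.05, edgeR adjusted p = 0.10) did not. Library 3 also had the highest summed oligodendrocyte markers, 59785 normalized counts beside a median of 27252. With the library set as a term Per2 passed (0.11 ± 0.02, edgeR adjusted p = 0.025), while Per3 at 0.17 ± 0.05, Nr1d1 at 0.10 ± 0.03 and Cry2 at 0.04 ± 0.01 did not (edgeR adjusted p = 0.055, 0.066 and 0.085).

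Other genes called on Per1 came singly from their lists. Usp2, a deubiquitinase under clock control, rose by 0.09 ± 0.03 (edgeR adjusted p = 0.032), as 1 of 9 tested partners and output genes. Of the 12 immediate early genes, which respond to neuronal activity within minutes, Egr1 alone rose, by 0.23 ± 0.07 (edgeR adjusted p = 0.041), with 10 of 12 slopes positive and a median of 0.10 beside 0.00 over all genes. None of the 9 glucocorticoid-responsive genes tested was called by edgeR (lowest adjusted p = 0.10), with 6 slopes positive and 3 negative. Of the 7 temperature-responsive genes Hsp90aa1 fell, by 0.10 on the log2 scale (SE 0.03, edgeR adjusted p = 0.032). Among cell markers the interneuron gene Slc32a1 rose, by 0.10 ± 0.03 (edgeR adjusted p = 0.030), as 1 of 3 in its list. The summed interneuron markers ran from 3109 in library 3 to 4966 in library 51, the libraries that were also lowest and highest in Per1, and their part in the slopes on Per1 was not tested. Without library 3 none of Usp2, Egr1, Hsp90aa1 and Slc32a1 passed (edgeR adjusted p = 0.066, 0.13, 0.092 and 0.10), with slopes of 0.10, 0.20, -0.09 and 0.08. With the library set as a term none of them passed either (edgeR adjusted p = 0.089, 0.094, 0.056 and 0.091), with slopes of 0.08, 0.21, -0.10 and 0.07.

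On Per2, 1 of the 9 other members rose and 0 fell, beside 0.824% of all genes that rose and 1.45% that fell by edgeR's quasi-likelihood test. That member was Per1, at 0.16 ± 0.03 (edgeR adjusted p = 0.019), and Per3 just missed the threshold at 0.17 ± 0.05 (edgeR adjusted p = 0.051). DESeq2's Wald test called 4 members, Per1, Per3, Cry2 and Nr1d1, all rising, and edgeR without libraries 12 and 20 called Per1 and Per3 (edgeR adjusted p = 0.038 for Per3). Egr1 rose with Per2 as with Per1, by 0.25 ± 0.07 (edgeR adjusted p = 0.047), and the levels of Per1 and Per2 are themselves related. Egr1 did not pass without library 3 (edgeR adjusted p = 0.11), without libraries 12 and 20 (0.081), with the oligodendrocyte score (0.078) or the library set (0.13) as a term, or with no filter (0.061), though its slope stayed between 0.22 and 0.25. Without library 3 the slope of Per1 was 0.15 ± 0.03 (edgeR adjusted p = 0.036), while the count over all genes went from 257 to 19. With the library set as a term Per1 no longer passed (0.15 ± 0.03, edgeR adjusted p = 0.065).

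On Npas2, 0 of the 9 other members and 0% of all genes in either direction were called by edgeR or by DESeq2, with 1454 genes at an unadjusted p under 0.05 by edgeR. The largest member slopes were those of Nr1d1, 0.11 ± 0.04 (edgeR adjusted p = 0.31), and Per2, given above. Slopes on Npas2 were not found to differ between the sets either (0% called, edgeR interaction term, 193 genes at an unadjusted p under 0.05).

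On Clock 11.6% of all genes rose and 10.1% fell, and 0 of the 9 other members were called (edgeR's quasi-likelihood test, 3963 genes at an unadjusted p under 0.05). Nr1d2 had 0.08 ± 0.03 (edgeR adjusted p = 0.063) and Nr1d1 -0.09 ± 0.04 (edgeR adjusted p = 0.14), so the slopes of the 2 REV-ERB genes had opposite signs. Nr1d2 lay close to the threshold and passed it by DESeq2's Wald test (adjusted p = 0.042), with DESeq2's size factors in edgeR (adjusted p = 0.047) and without library 3 (edgeR adjusted p = 0.045). Without libraries 31, 32, 34 and 35 Nr1d2 rose (edgeR adjusted p = 0.016) and Dbp fell (edgeR adjusted p = 0.034), and in the libraries up to 31 alone Nr1d2 rose (edgeR adjusted p = 0.0493) and Nr1d1 fell (edgeR adjusted p = 0.0487). Of the 9 genes for kinases, ubiquitin ligase parts and Timeless, 3 rose with Clock: Gsk3b by 0.18 ± 0.05 (edgeR adjusted p = 0.019), Csnk1a1 by 0.09 ± 0.03 (edgeR adjusted p = 0.033) and Fbxw11 by 0.06 ± 0.02 (edgeR adjusted p = 0.023). The list's median slope was 0.07 beside -0.01 over all genes. Without libraries 12 and 20, which had the highest values of Clock, none of the 3 passed (edgeR adjusted p = 0.14, 0.33 and 0.13). The slopes of Gsk3b and Fbxw11 were then 0.15 and 0.05, and that of Csnk1a1 was 0.05. In the libraries from 32 alone Gsk3b had 0.16, Csnk1a1 0.0063 and Fbxw11 -0.0226, beside 0.17, 0.08 and 0.07 up to 31. Usp2 fell, by 0.08 on the log2 scale (SE 0.03, edgeR adjusted p = 0.031), in contrast to its slope on Per1, and without libraries 12 and 20 it was at -0.11 (edgeR adjusted p = 0.042). It did not pass with no filter (edgeR adjusted p = 0.053) or within a set (edgeR adjusted p = 0.24 and 0.58).

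Markers of neurons also moved with Clock, in both directions. Syt1 rose by 0.19 ± 0.05 (edgeR adjusted p = 0.00998), Gad2 by 0.23 ± 0.07 (edgeR adjusted p = 0.018) and Gad1 by 0.06 ± 0.02 (edgeR adjusted p = 0.038), while Rbfox3 fell by 0.08 (SE 0.03, edgeR adjusted p = 0.027). That is 1 of 4 neuronal markers up and 1 down, and 2 of 3 interneuron markers up. The cold-induced RNA-binding gene Cirbp fell by 0.09 (SE 0.03, edgeR adjusted p = 0.032) and the chaperone Hspa8 rose by 0.05 ± 0.02 (edgeR adjusted p = 0.049), 2 of 7 temperature-responsive genes tested. Without libraries 12 and 20, at 1048 and 991 normalized counts of Clock, none of Syt1, Gad2, Gad1, Rbfox3, Cirbp and Hspa8 passed (edgeR adjusted p from 0.10 for Syt1 to 0.40 for Cirbp), and 903 genes were called in place of 2444. The slopes were then 0.16 for Syt1, 0.21 for Gad2, 0.05 for Gad1, -0.08 for Rbfox3 and 0.05 for Hspa8, close to those above, and -0.04 for Cirbp. In the 11 libraries from 32 alone 0 genes were called by edgeR (751 at an unadjusted p under 0.05, no DESeq2 fit). The part of cell makeup or RNA quality in the slopes on Clock was not tested.

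**Figure D4:**
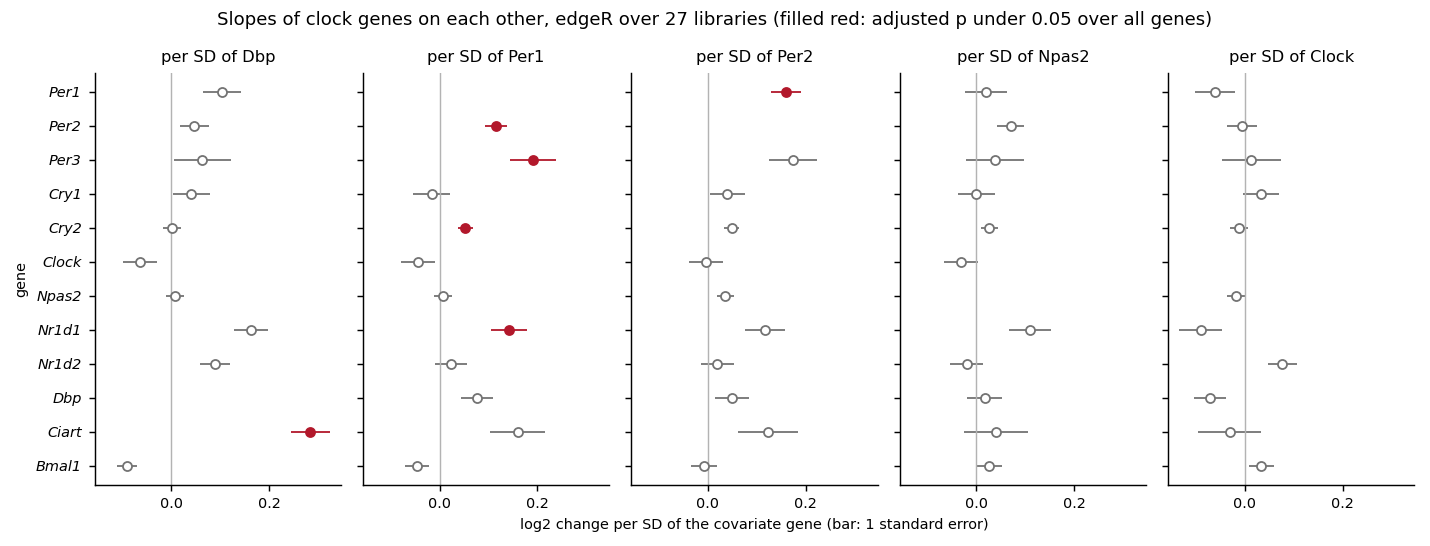
Slopes of each clock gene, in log2 change per SD of the gene named above each panel, from edgeR over 27 libraries, with bars of 1 SE. Filled red points passed an adjusted p of 0.05 over all genes. They are Ciart on Dbp, the members Per2, Per3, Cry2 and Nr1d1 on Per1, and Per1 on Per2, and no clock gene is filled on Npas2 or Clock.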

How the data were processed

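RNA from the mPFC of 27 rats was sequenced with single reads. The authors deposited 1 table of raw read counts per gene, not normalized. Their processing notes name Trimmomatic, STAR and HTSeq, and the genome build and the strand setting are not given in the sources used here. The labels name a TruSeq kit and the study's methods another. Rows were matched to symbols by RefSeq gene identifiers, and 436 rows split over loci stayed in the fits but in no list. Levels are counts divided by size factors from DESeq2 1.42.0. Tests used edgeR 4.0.16 (R 4.3.3) with filterByExpr, TMM and robust quasi-likelihood fits, on the z score of log2(normalized count + 1) of 1 gene, which was left out of its own fit, with Benjamini-Hochberg adjustment over all genes and a threshold of 0.05. Scripts were tested on simulated data. With 200 genes at a slope of 0.5 per SD of Dbp, larger than the slopes given here, edgeR recovered 197, with 17 false calls. Smaller slopes were not simulated. Pairs of genes had 100000 permutations of the libraries. The named genes are the 10 members, up to 4 genes per list by p, and the 5 genes most like and most opposed to Dbp and Npas2. Ciart and Bmal1 come from the list of partners, and their levels and motifs are shown because of their rank on Dbp. The members and lists were chosen with earlier results of these data known. The p-values of the edgeR, DESeq2 and permutation tests rest on the spread between libraries, 1 per rat, so rat and library handling cannot be told apart. Those of the chi-square test set the counts against counting error. Levels rest on 54 or more reads for the genes described by library. An item on 1 of the lists is not reported here.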

Additional observations from a re-analysis of the deposited data

How the results depend on the processing

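No paired analysis was possible because the libraries form 1 group. Of 65 counts of genes under an alternative, 42 stayed within 1.5 times of the value given. Of 299 single-gene slopes, 212 kept their direction and side of the threshold, 81 no longer passed, 3 newly passed and 3 changed sign. The side relation ran from -0.09 to 0.09 over 11 alternatives and changed sign in 5, and of 88 correlations of a pair 10 changed sign. The genes called on Dbp were 3 by DESeq2, 17 without libraries 31, 32, 34 and 35, 2 with the library set as a term and 0 in each set alone. Those on Per1 were 150 without library 3, 2421 without libraries 31, 32, 34 and 35, 304 with the set as a term, and 1 and 2 in the sets up to 31 and from 32. Those on Per2 were 127 with no filter, 792 by DESeq2, 43 with the oligodendrocyte score as a term, 19 without library 3, 748 without libraries 31, 32, 34 and 35, 2 with the set as a term, and 0 and 2 in the sets. Those on Clock were 903 without libraries 12 and 20 and 0 from 32 alone. Those on library number were 1 with the set as a term, 0 up to 31 and 1 from 32. The slopes that changed sign were those of Nr1d2 on Dbp without libraries 31, 32, 34 and 35 (-0.0071), and of Fbxw11 (-0.0226) and Cirbp (0.0118) on Clock from 32 alone. A set alone holds 16 or 11 libraries, and the cause of the other changes was not tested. The removal of library 3 and of libraries 31, 32, 34 and 35 was chosen after the data were seen. Counting error made up 18.9% of the variance of Ciart, which had as few as 54 reads, and 26.6% of that of Cry1.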
